A study of Mus musculus with 6 samples.

Results

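The comparison concerns the CpG methylomes of advanced pluripotent stem cells (ASCs) and naive embryonic stem cells (ESCs) of the mouse. It asks where ASCs were higher than ESCs and which loci lay near the ESC level. Of the 6 bisulfite libraries of the series, 4 entered it, 2 of ASCs and 2 of ESCs, and the other 2, of epiblast stem cells (EpiSCs), are quoted only as context. All were labelled as wild type, of strain 129S2/SvPasCrl, and with the cell type embryonic stem cells. ASCs are self-renewing lines that the study obtained by moving epiblast-like lines, grown from blastocysts in Activin A and bFGF, into a medium with Activin A, BMP4, the GSK3 inhibitor CHIR99021 and LIF. Colonies were picked by a GFP reporter driven by Oct4 regulatory sequence, so the lines descend from a selected minority of the cells, and their methods give a mixed genetic background, unlike the strain label. ESCs were grown in 2i/LIF, which combines LIF with inhibitors of MEK and GSK3. Gain, rise, fall and held stand below for differences between the groups, since these libraries follow no cells from 1 state to the other. EpiSCs are cells in a primed state, closer to the epiblast of the implanted embryo. The study described the methylome lines as female. The labels give 2 biological replicates per condition without saying whether these were separate lines or cultures of 1 line, so p-values measure the spread between these libraries. RNA was not part of these libraries, and the identity of the cells could not be checked here against the expression of marker genes.

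In mammals, cytosine methylation sits mostly on CpG dinucleotides, where DNMT3A and DNMT3B with their cofactor DNMT3L place it and DNMT1 with UHRF1 copies it to the new strand at replication. TET enzymes oxidise it and so open a way to its removal. Cells kept in 2i/LIF are known for low methylation over most of the genome, while the epiblast acquires methylation at implantation. Stretches dense in CpG, called CpG islands, usually stay unmethylated at gene starts, with germline genes and imprinted genes as known exceptions.

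The sequences below are the 200 bases immediately before the transcription start of 4 genes, in GRCm38, read 5′ to 3′ on the strand of the gene and taken from the reference genome, with every CG in capitals. They show how many CpG sites stand behind the values that follow. Rec8 is shown because its stretch had 0 methylated observations in ASCs and ESCs, and Dazl, Mest and Ffar2 because they gained methylation. No annotated exon overlapped any of these stretches.
Rec8 (chr14:55617837-55618036, plus strand): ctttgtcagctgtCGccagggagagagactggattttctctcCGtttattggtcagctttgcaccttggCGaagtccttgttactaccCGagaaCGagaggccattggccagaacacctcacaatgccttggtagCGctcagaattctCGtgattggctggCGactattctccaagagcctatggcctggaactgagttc
Dazl (chr17:50293637-50293836, minus strand): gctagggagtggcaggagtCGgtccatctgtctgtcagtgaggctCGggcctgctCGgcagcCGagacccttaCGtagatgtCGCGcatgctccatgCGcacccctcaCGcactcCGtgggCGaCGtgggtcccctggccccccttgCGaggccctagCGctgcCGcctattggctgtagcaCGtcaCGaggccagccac
Mest (chr6:30737850-30738049, plus strand): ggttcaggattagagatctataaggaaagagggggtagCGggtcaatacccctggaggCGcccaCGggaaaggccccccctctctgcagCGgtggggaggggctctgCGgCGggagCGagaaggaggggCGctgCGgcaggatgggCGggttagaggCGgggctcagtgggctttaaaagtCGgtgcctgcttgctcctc
Ffar2 (chr7:30823776-30823975, minus strand): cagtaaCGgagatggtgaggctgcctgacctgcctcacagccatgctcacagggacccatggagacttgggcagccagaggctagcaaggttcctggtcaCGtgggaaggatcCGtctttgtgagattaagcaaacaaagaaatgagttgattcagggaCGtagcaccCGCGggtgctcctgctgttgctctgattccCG

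Rec8 had 8 CpG sites in the stretch, Dazl 17, Mest 12 and Ffar2 7. The Rec8 stretch had 0 methylated observations in all 4 libraries, an observation being 1 read over 1 CpG site, where the shallowest library, with 18 observations, allows up to 16.7%. The Dazl stretch was methylated at 68.9% and 54.5% in the ASC libraries and at 14.3% and 22.8% in the ESC libraries. At Ffar2 the same stretch was at 82.7% and 78.0% in ASCs against 2.78% and 10.5% in ESCs. At Mest it was at 53.2% and 47.8% in ASCs against 0% and 12.5% in ESCs, the last on 8 observations. In the latter 3 stretches both ASC libraries lay above both ESC libraries, which the choice of genes that gained methylation favours. The share over all promoters was not counted. Both EpiSC libraries were at 87.5% or above in the stretches of Rec8, Dazl and Ffar2, and at 42.9% and 52.4% in that of Mest.

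The assay was whole-genome bisulfite sequencing, in which unmethylated cytosine is converted and read as thymine. The 4 libraries held between 70275978 and 74925271 CpG reads, a mean of 3.25 to 3.46 per listed CpG site, and 16.2% to 17.2% of the listed sites had no read. Observations were therefore summed over 2 kb tiles and over promoters of chromosomes 1 to 19, and the methylation level of a region was the share of its observations that were methylated. A region was tested where each of the 4 libraries had at least 40 observations. This left 505208 of 1197510 tiles that hold a CpG and 14554 of 20722 promoters of protein-coding genes. Chromosome X was left out of the comparison, since its coverage relative to the autosomes was 0.499 and 0.494 in ASCs and 0.367 and 0.380 in ESCs. On mitochondrial DNA, 49.3% and 45.5% of CpG observations were read as methylated in ASCs and 41.5% and 46.0% in ESCs, and the part of conversion in the levels below was not tested.

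ASCs were highly methylated in most of the tested tiles, where ESCs were low. The median tile was at 69.1% and 69.2% in the ASC libraries and at 19.4% and 19.8% in the ESC libraries. The groups did not overlap and their medians differed by 49.6 percentage points, against SDs of 0.107 in ASCs and 0.243 in ESCs (n = 2 each). An exact two-sided permutation test of this single value gave p = 0.333, the smallest that 2 libraries against 2 allow. Tiles above 50% made up 82.4% and 82.5% of the tiles in ASCs and 0.391% and 0.436% in ESCs, and tiles below 10% made up 3.59% and 3.54% in ASCs against 16.4% and 16% in ESCs.

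Each tile was then tested with a logistic model of its observations, whose spread between replicates was estimated per tile and moderated across tiles. A call needed an adjusted p under 0.05 together with a difference between group means of 20 points or more. It was described as held near the ESC level where the difference was under 10 points and its 95% interval lay within 20 points of 0, which is a description without a test. Of all tiles, 465563 (92.2%) were called higher in ASCs, 0 (0%) lower, and 22949 (4.54%) were held. The remaining 16696 tiles met neither description. A tile could be called lower only where ESCs were at 20% or more. The ESC mean was at most 5% in 6.32% of tiles, between 5% and 10% in 8.09%, and between 10% and 20% in 36.4%. The median difference over all tiles was 46.9 points, with 39.1 and 52.6 points at the quartiles, so most tiles had gained by a similar amount. The order of magnitude was also shared by the chromosomes, whose medians ran from 46.0 points on chromosome 17 to 47.9 on chromosome 14.

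The gain was nearly even in tiles with few CpG sites and nearly absent in tiles with many. Tiles of 11 to 20 sites had a median gain of 48.6 points, and 97.8% of them were called higher and 0.670% held. In tiles of 21 to 40 sites the median gain was 46.6 points and 2.26% were held, in those of 41 to 80 sites 30.6 points and 25%. In the 8813 tiles of over 80 sites, ASCs were at 5.02% ± 0.0843 and ESCs at 2.05% ± 0.0564 over all observations (SD, n = 2), 91.5% of tiles were held and 3.42% called higher. The remaining 4266 tiles, with at most 10 sites, gained a median of 48.8 points.

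Held tiles also concentrated at gene starts. Of the 24675 tiles with a protein-coding start inside, 47.6% were held, against 12% within 2 kb of a start, 2.91% from there to 10 kb, 1.61% from there to 50 kb and 0.857% farther away. Within tiles of similar CpG number part of this order remained. Among tiles of 41 to 80 sites the share held fell from 60.7% with a start inside to 5.85% beyond 50 kb. Among tiles of 11 to 20 sites it was 1.72% with a start inside and 2.82% within 2 kb, so most tiles poor in CpG sites were not held at starts either. Exonic tiles were held in 11.2% of cases, intronic in 1.90% and intergenic in 1.82%.

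**Figure D1:**
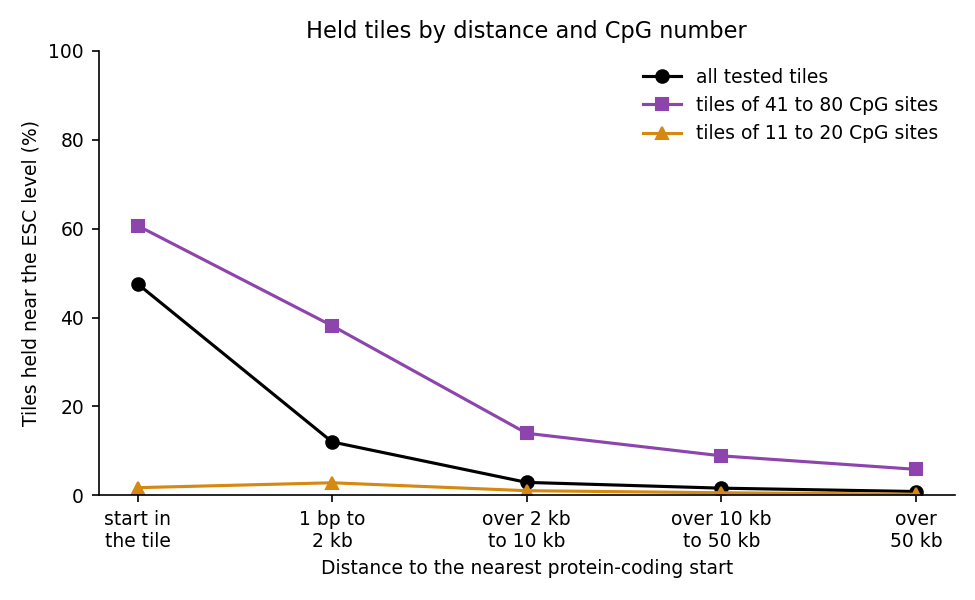
Share of tiles held near the ESC level (%) by distance to the nearest protein-coding start, for all tested tiles, for tiles of 41 to 80 CpG sites and for tiles of 11 to 20 sites. At a start the shares were 47.6%, 60.7% and 1.72%, and beyond 50 kb 0.857%, 5.85% and 0.243%.

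The median gain per tile differed little with repeat content, and the direction of the difference depended on the measure. The median gain was 47.3 points in tiles with up to 10% of repeat-masked bases and 44.9 in those with over 90%. Over all observations the gain was larger in the second kind, at 43.5 points against 36.2 in the first. ASCs were at 73.5% of all observations in the second kind and at 52.2% in the first. The share of tiles called higher was 96.9% in the second kind and 88.2% in the first. ESCs themselves were higher in the second kind, at 30% of all observations against 16.1% in the first, and the share of held tiles was 1.02% against 8.40%. The masked share does not tell repeat families apart, and reads from young repeats that map to several places may not be counted.

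The 5 tiles with the largest gains averaged between 3.46% and 12.3% in ESCs and between 81.4% and 90.6% in ASCs. The first lay in intergenic sequence of chromosome 11 (15754001 to 15756000), 501724 bp from the start of Vstm2a, and read 82.5% and 88.5% in ASCs against 8.33% and 5.26% in ESCs. The gain there was 78.7 points (95% interval 69.3 to 88.1, adjusted p = 1e-16). The next was an exonic tile of Chrm3, which encodes a muscarinic acetylcholine receptor (chromosome 13, 10120001 to 10122000), at 86.7% and 84.1% against 7.02% and 6.67%. The others lay at 35526001 on chromosome 3, in an intron of Vti1a and in an intron of Frmd4a, with gains of 78.3, 77.9 and 77.9 points. In all 5 the groups were far apart in relation to their replicates, which the choice of the largest differences favours.

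ESCs also had tiles of fairly high methylation, and ASCs were mostly higher there too. In 1263 tiles the ESC mean was at least 50%, with a median of 52.8%. ASCs had a median of 86.5% in these tiles, 1236 of them were called higher, and 0 were held. Only 109 of the held tiles had an ESC mean of at least 20%. Held tiles had a median of 5.11% in ASCs and 1.64% in ESCs, and 77.2% of them were under 10% in ASCs.

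Over windows of 1 Mb the gain varied little. Across 1610 windows with at least 100 tested tiles, the middle 90% of median gains lay between 41.7 and 50.8 points. The lowest, 30.1 points, was the window of chromosome 18 that holds the clustered protocadherin genes, which encode neuronal cell surface proteins. The next were at 81000001 on chromosome 10, with 30.2 points, and at 19000001 on chromosome 7, with 32.4. The highest, 54.0 points, started at 22000001 on chromosome 14. Windows with more gene starts gained less (Spearman's rho = -0.572 across windows, a description, since neighbouring windows share libraries and base composition). These windows were singled out after their values were seen.

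The held tiles comprised a large group at gene starts and a smaller one far from them. Of the 22949 held tiles, 15855 (69.1%) lay within 2 kb of a start and 4417 (19.25%) over 10 kb away, against 70.1% of all tiles. Their median number of CpG sites was 63, and that of all tested tiles 22. EpiSCs, which were not used to choose them, had a median of 11.1% in the held tiles near starts and 78.6% in the distal ones. At least 50% was reached in EpiSCs by 13.1% of the former and 68.8% of the latter. Of all tested tiles 95.4% and 95.3% were above 50% in the EpiSC libraries, with medians of 92.02% and 92%, and the shares of both kinds of held tile lay below these.

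Distal held tiles stood in surroundings that had gained, though less than tiles in general. For 3814 of the 4417, tiles 2 to 10 kb away on both sides could be averaged, and their median gain was 37.7 points against 5.35 points in the held tiles themselves. Held tiles were chosen for a small difference, so this gap is partly set by the choice. All tiles gained a median of 46.9 points, those 10 to 50 kb from a start 47.2 and those farther away 49.1. The 10 with the largest gap included a tile on chromosome 9 (46702001 to 46704000), 294741 bp from the nearest protein-coding start, which read 2.34% and 0.606% in ASCs against 2.19% and 2.80% in ESCs. Its neighbours had gained 57.0 points, and EpiSCs were at 85.4% in the tile. An intronic tile of Glis3, which encodes a zinc finger transcription factor (chromosome 19, 28560001 to 28562000), read 5.17% and 5.45% in ASCs against 0% and 1.47% in ESCs, with 60.3 points in its neighbours and 84.3% in EpiSCs. Not all such tiles were high in EpiSCs. One on chromosome 12 (25124001 to 25126000), 26861 bp from the start of Id2, an inhibitor of basic helix-loop-helix factors, read 4.63% and 9.38% in ASCs, 8.87% and 5.44% in ESCs and 13.4% in EpiSCs.

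Neighbouring held tiles formed 16669 runs, of which 12078 were single tiles and 146 reached 5 tiles or more. The 10 longest are described here. The longest, 22 kb, spanned the start of Smad7, which encodes an inhibitory SMAD. It was followed by runs of 20 kb at the starts of Mllt6 (chromosome 11, 97656001 to 97676000), Elovl6, a fatty acid elongase (chromosome 3, 129532001 to 129552000), and Mybl2, a cell cycle transcription factor (chromosome 2, 163050001 to 163070000). At Mllt6 the run read 2.23% and 2.60% in ASCs against 1.31% and 2.14% in ESCs, and at Elovl6 3.13% and 3.07% against 1.16% in both. At Mybl2 it read 2.91% and 4.12% in ASCs against 0.857% and 1.16% in ESCs, while EpiSCs read 65.5% and 61.2%. The run at Epha2, an ephrin receptor gene (chromosome 4, 141278001 to 141298000), ended 3240 bp from the start and read 5.89% and 5.19% in ASCs against 3.34% and 2.76% in ESCs. Both groups were low over these 4 stretches, and no library of either exceeded 5.89%.

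Some runs lay inside genes, far from the start. The run within Esrrb, an orphan nuclear receptor of the naive network, covered 20 kb (chromosome 12, 86464001 to 86484000), 42357 bp from the start. It read 2.75% and 2.90% in ASCs against 1.13% and 1.0% in ESCs, while EpiSCs read 92.3% and 91.3%. The run of 18 kb within Etv5, an ETS factor (chromosome 16, 22400001 to 22418000), lay 21719 bp from the start and read 4.08% and 5.28% in ASCs against 1.03% and 0.716% in ESCs, while EpiSCs read 86.9% and 87.7%. The run within Myo10 (chromosome 15, 25758001 to 25776000) read 5.16% and 4.59%, 0.831% and 1.04%, and 74.9% and 73.4% in the same order. In the runs of Esrrb, Etv5 and Myo10, as in all of the 10 except Spry4, both ASC libraries were slightly above both ESC libraries. The share over all runs was not counted. In the runs of Esrrb, Etv5 and Myo10 all 4 libraries were far below EpiSCs. The other 2 of the 10 differed from each other in EpiSCs. At Lhx5, a LIM homeobox gene (chromosome 5, 120424001 to 120442000), all 6 libraries were low, with 8.52% and 7.77% in EpiSCs. At Spry4, an inhibitor of FGF signalling on chromosome 18, ASCs read 7.57% and 6.05%, ESCs 7.84% and 6.32% and EpiSCs 59.4% and 57.2%.

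Lower levels in ASCs than in ESCs were rare and the differences small, though low ESC levels left many tiles no room for 20 points. Without a required difference, 292 tiles (0.0578%) were lower in ASCs at an adjusted p under 0.05, 297 at an unadjusted p under 0.05, 373 with limma on M values and 341 with Fisher's exact test, both unadjusted. None of these tests called a tile lower with the required 20 points. The median of the 292 was -1.81 points, with median levels of 2.37% in ESCs and 0.493% in ASCs, and 83.6% contained a start. The most negative lay in an intron of Lrfn2, a neuronal adhesion gene (chromosome 17, 49030001 to 49032000), at 1.12% and 5.31% in ASCs against 15.8% and 18.8% in ESCs (-14.1 points, adjusted p = 0.000202). EpiSCs were at 91.2% there. Tiles at Brd1, Rcc2 and Akap2 followed with -11.8, -10.7 and -9.75 points, and a tile near Cd38 with -9.54 points, whose adjusted p of 0.103 missed the threshold. In the Lrfn2 tile the groups did not overlap, as in 196 of the 292. The 292 were chosen for lower ASC levels in these same libraries, which favours this, and the share over all tiles was not counted.

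Promoters, which reached from -1000 to 100 bp around 1 start per gene, showed far fewer gains than tiles. Of 14554 promoters, 2678 (18.4%) were called higher in ASCs, 0 (0%) lower, and 10035 (69%) were held. The median difference was 3.27 points, with a median level of 4.95% in ASCs and 1.62% in ESCs. These calls rest on all 4 libraries. With any 1 library left out, 0 promoters were called, and the smallest adjusted p lay between 0.0867 and 0.0996 (limma-moderated test), while the 14 called promoters that were followed by name kept the direction of their difference. The 14554 promoters were also not a cross-section of genes, since 34.6% of those poor in CpG reached the minimum and 98.96% of those rich in CpG.

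CpG content separated the promoters. They were sorted by the observed over expected CpG frequency and GC content of 500 bp windows into a high, an intermediate and a low class. In the high class, 30 of 5984 (0.501%) were called higher and 5707 (95.4%) were held, with a median difference of 0.523 points. In the intermediate class 664 of 5694 (11.7%) were called higher and 3915 (68.8%) held, with a median of 4.96 points. In the low class 1984 of 2876 (69.0%) were called higher and 413 (14.4%) held, with a median of 35.6 points. Around the starts of the high class, ASCs and ESCs met. In the first 250 bp after the start the level was 0.958% and 0.957% in the ASC libraries, beside 0.933% and 0.961% in the ESC libraries, while 5 kb downstream it was 53.1% and 53.3% against 16.2% and 16.5%. In the low class the groups stayed apart at the start, with 34.5% and 35.1% in ASCs and 9.10% in both ESC libraries in the same 250 bp.

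**Figure D2:**
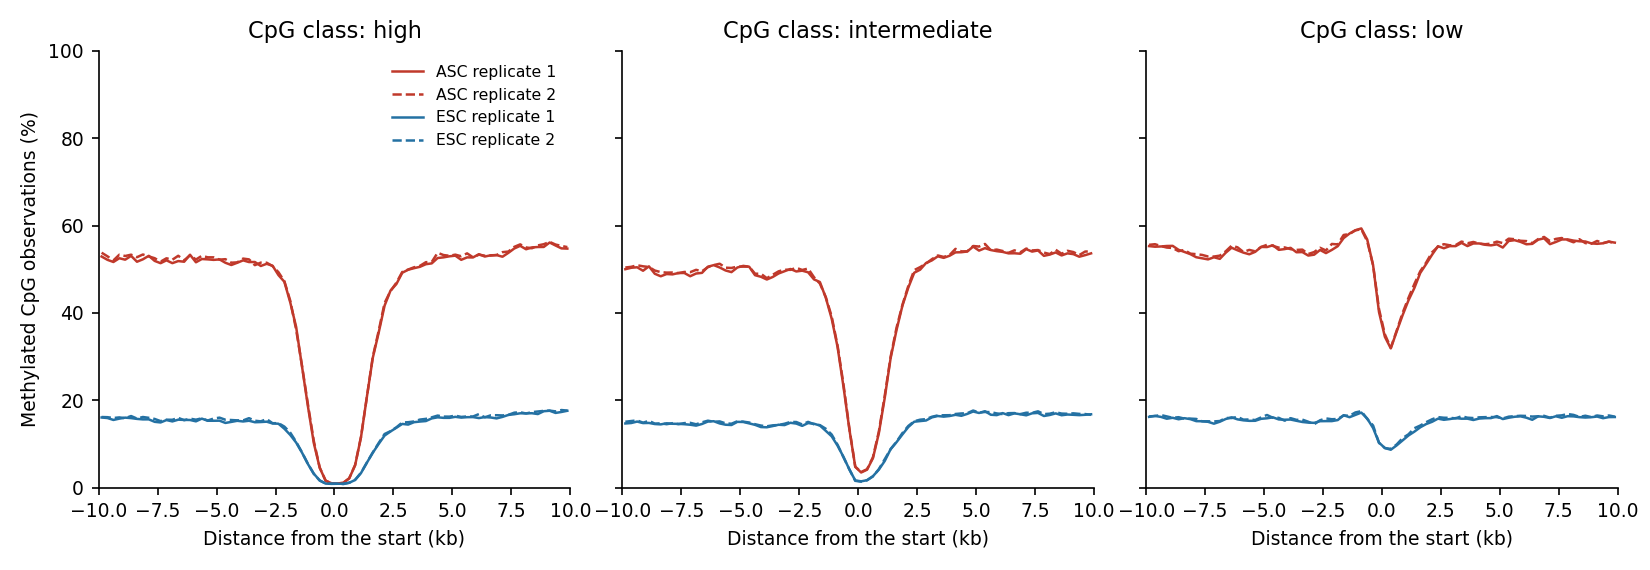
Methylated share of CpG observations (%) in steps of 250 bp from 10 kb before to 10 kb after the starts of protein-coding genes, in 3 panels for the high, intermediate and low CpG class, 1 line per ASC and ESC library. The lines of both groups meet, between 0.933% and 0.961% just after the start, at starts of the high class and remain apart at those of the low class, at 34.5% and 35.1% in ASCs and 9.10% in ESCs.

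The 10 promoters with the largest gains belonged to the low class except for Ffar2, of the intermediate one. Ffar2, which encodes a receptor for short-chain fatty acids, read 86.1% and 79.7% in ASCs against 5.95% and 14.5% in ESCs, a gain of 72.7 points (95% interval 60.8 to 84.6, adjusted p = 0.00657). Stab2, a scavenger receptor gene, was the last of the 10, at 82.6% and 84.3% in ASCs against 16.7% and 15.6% in ESCs. Between them lay Rd3l, Evi2b, Klhl30, Mefv, Lmod2, Bpifa6, Slc38a3 and Gm4707, with gains from 67.5 to 70.6 points. All 10 were at 85.2% or more in EpiSCs, and their adjusted p-values were 0.00657.

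Held promoters of the intermediate and low classes stood in flanks that had gained. For 3293 held promoters of the intermediate class, tiles 2 to 10 kb away on both sides had a median gain of 39.6 points against 2.35 at the promoters, and for 345 of the low class 36.9 against 4.30. These gaps are likewise partly set by the choice of held promoters. All tiles 2 to 10 kb from a start gained a median of 45.4 points. The gap was largest at Dchs2, a protocadherin-like gene (chromosome 3, 83126948 to 83128048), at 1.07% and 2.14% in ASCs against 2.20% and 0.658% in ESCs, where the flanks had gained 56.8 points. At Kit, the receptor of stem cell factor (chromosome 5, 75573955 to 75575055), ASCs read 3.79% and 5.34%, ESCs 1.44% and 0.671%, and the flanks gained 58.6 points. Alg6, Trim9, Nek4, Adamts15, Frem3, Wwox, Itpr2 and Gdf6 made up the rest of the 10, with differences between -2.32 and 1.18 points. At Frem3 EpiSCs were at 35.5%, and at the other 9 at 14.3% or less. Of all held promoters EpiSCs reached 50% at 1.33% in the high class, 5.72% in the intermediate and 35.4% in the low class.

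The promoters of naive pluripotency genes were mostly low in ASCs, as in ESCs. Of the 21 listed genes 16 were tested, 0 were called higher and 14 were held, against 18.4% and 69% of all promoters, with a median difference of 0.885 points against 3.27 over all promoters. Of the 6 members of the low class 0 were called higher and 4 held, where 69.0% and 14.4% of all promoters of that class were. The 6 of the high class and the 4 of the intermediate were all held, as were 95.4% and 68.8% of all promoters of those classes. The study had named several of these genes, and some of the germline list below, for lost promoter methylation in the same ASC libraries compared with EpiSCs, so neither list is independent evidence of a direction. Zfp42, a zinc finger gene used as a naive marker (chromosome 8, 43306836 to 43307936), had 0 methylated observations in all 4 libraries, and its shallowest library, with 44 observations, allows up to 6.82%. Dppa5a, an RNA-binding protein gene of pluripotent cells, read 0% in both ASC libraries and 1.43% and 0% in ESCs. Nanog, a core homeobox factor, read 5.97% and 4.41% in ASCs against 0% and 1.03% in ESCs, a difference of 4.68 points.

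Among the naive genes the higher values came from Esrrb, Tdh and Dppa3. The Esrrb promoter (chromosome 12, 86420644 to 86421744) read 26.9% and 19.3% in ASCs against 9.46% and 11.7% in ESCs, 12.5 points apart (adjusted p = 0.0398), which is under the required 20 points. Tdh, threonine dehydrogenase, read 9.68% and 17.8% against 0% and 5.56% (10.9 points, adjusted p = 0.142), a difference of 6.90 points without ASC replicate 2. Dppa3, a maternal factor that shields methylation patterns in the early embryo, read 11.9% and 6.98% against 2.06% and 1.37%, and EpiSCs were at 98.6%. Both ASC libraries lay above both ESC libraries at these 3 promoters, which were picked for their higher values. The same was seen at Nanog, Prdm14, Tcl1, Klf5, Gbx2 and Zfp57, and the share over all promoters was not counted. Of all 14554 promoters, 2328 had a difference below 0. In the symmetric window, 500 bp to either side of the start, Esrrb differed by 1.2 points, Tdh by -0.279 and Dppa3 by 12.2, so the differences at Esrrb and Tdh were not seen in that window. Dppa3, at 7.70 points, left the held description without any 1 of the 4 libraries, with values from 5.26 to 10.1 points. Klf2, Dppa5a, Tfcp2l1, Klf4 and Tbx3 had negative differences, the largest of -2.81 points at Klf2, where ESC replicate 2 alone was at 6.75%. Klf2 differed by 0.293 points without that library and by -5.91 without ESC replicate 1. Fbxo15, Gdf3, Nr5a2, Dppa2 and Dppa4 did not reach the minimum.

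Of the general pluripotency genes all 9 tested were held, against 69% of all promoters, with a median of 0.417 points. They comprised 2 promoters of the high class, 5 of the intermediate and 2 of the low, classes in which 95.4%, 68.8% and 14.4% of all promoters were held. The largest value belonged to Utf1, a chromatin-associated factor of pluripotent cells, at 12.7% and 13.3% in ASCs against 2.83% and 3.77% in ESCs, a difference of 9.71 points (adjusted p = 0.0293). It left the held description without any 1 of the 4 libraries, with values from 9.24 to 10.2 points, and with the replicate number as a block. In the symmetric window, Utf1 differed by 0.588 points. The smallest was 0.192 points at Zfp281.

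Most germline promoters gained methylation. Of 28 tested, 19 (67.9%) were called higher, against 18.4% of all promoters, 6 were held and 3 met neither description, with a median difference of 30.7 points. In the high class 3 of 8 were called, against 0.501% of all promoters of that class, in the intermediate class 12 of 15, against 11.7%, and in the low class 4 of 5, against 69.0%. Asz1, a gene of the piRNA pathway (chromosome 6, 18108957 to 18110057), read 73.7% and 70.2% in ASCs against 12.6% and 15.8% in ESCs, a gain of 57.8 points (adjusted p = 0.00657). Dazl, an RNA-binding protein of germ cells, was 48.9 points higher over its whole promoter, at 74.9% and 66.3% in ASCs against 19.6% and 23.8% in ESCs. The synaptonemal complex genes Sycp3 and Sycp1 gained 36.5 and 32.8 points and Hormad1, of the meiotic chromosome axis, 39.7. Over the whole promoter the groups did not overlap at any of these genes. All were called higher, so this adds little, and the share over all promoters was not counted.

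The 9 germline promoters that were not called had smaller differences. Smc1b, Meioc, Piwil2, Rec8, Zcwpw1 and Stag3 were held, which does not exclude a small difference. Smc1b, a meiotic cohesin subunit, read 13.8% in both ASC libraries against 4.67% and 3.35% in ESCs, 9.84 points higher (adjusted p = 0.0166), and Meioc, a regulator of meiotic entry, rose by 8.85 points (adjusted p = 0.011). Of the others, Rec8, the meiotic cohesin kleisin, read 10.3% and 1.61% in ASCs against 0% and 1.08% in ESCs, and Stag3, another meiotic cohesin gene and the smallest of the list, 1.80% and 0.733% against 0.322% and 1.17%. Stag3 differed by 0.518 points, and by -0.01503 points without ASC replicate 1 to 1.05 without ASC replicate 2. The value of Rec8, 5.44 points, rested on ASC replicate 1: it was 1.08 points without that library and left the held description without any 1 of the others, with 4.90 to 9.81 points. In the symmetric window, Rec8 differed by -0.444 and Meioc by 1.91 points, while Stag3, Zcwpw1 and Piwil2 differed by 7.01, 13.1 and 12.3. EpiSCs were at 93.9% at Rec8 and 15% at Stag3. Mael, Syce1 and Ddx4 lay in between, at 16.4, 15 and 13.2 points. In the same window, Mael was called with 22.5 points, while Tex19.1 and Stra8, a gatekeeper of meiosis, lost their calls with 15.4 and 18.4 points. Stra8 itself read 32.8% and 33.0% in ASCs against 9.48% and 8.11% in ESCs.

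**Figure D3:**
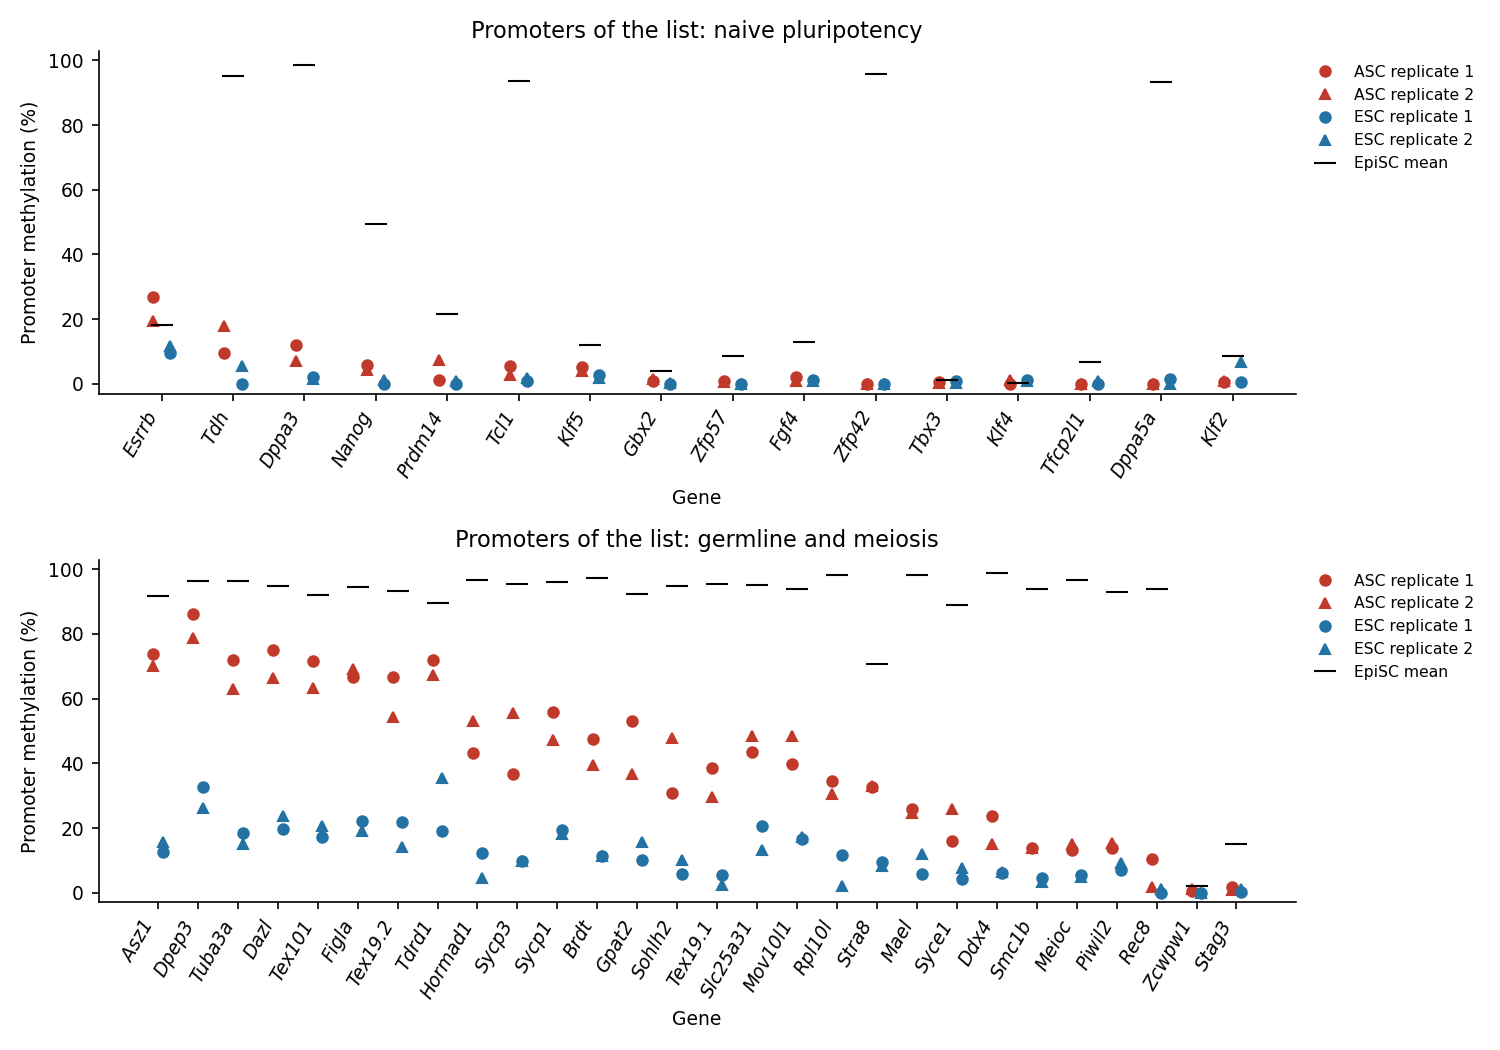
Promoter methylation level (%) of the tested genes of the naive list (top) and the germline list (bottom), 1 symbol per ASC and ESC library and a dash for the EpiSC mean, ordered by the ASC minus ESC difference. Naive promoters in ASCs reach at most 26.9%, at Esrrb, while Dazl lies at 74.9% and 66.3% in the ASC libraries and at 19.6% and 23.8% in the ESC libraries.

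Promoters of imprinted genes differed among themselves. Imprinted genes carry methylation on the allele of 1 parent at control regions, which the promoter window covers in some genes and not in others. Of 20 tested, 8 (40%) were called higher and 10 (50%) held, against 18.4% and 69% of all promoters, with a median of 10.2 points. Mest read 57.4% and 56.9% in ASCs against 0.997% and 0.775% in ESCs, a gain of 56.3 points (adjusted p = 0.00657). Nnat, a neuronal proteolipid gene, read 40.5% and 37.5% against 2.05% and 1.89%, and Peg3, a zinc finger gene, 32.2% and 34.5% against 0.588% and 0.420%. Dlk1, Plagl1, Peg10, Nap1l5 and Sgce were the other 5, with gains from 21.7 to 38.1 points, of which Dlk1, the largest, lost its call in the symmetric window with 12.6 points. Among the held, Mcts2 differed by 0.186 points and Zrsr1 by 8.40, with EpiSCs at 54.6% and 59.4%, and Zdbf2, with -1.74 points, was the smallest. In the symmetric window Mcts2 differed by 1.28 points and Zrsr1 by 2.57. Zdbf2 read 2.11% and 0.741% in ASCs against 0.559% and 5.78% in ESCs, and its difference ran from -4.35 points without ESC replicate 1 to 0.867 without ESC replicate 2. Inpp5f and Magel2 met neither description, at 16.2 and 10.7 points (adjusted p = 0.0399 and 0.244), and differed by 0.785 and 0.414 points in the symmetric window. Impact, Ndn and Snrpn did not reach the minimum. Genes of the list that rose lay between 21.3% and 57.4% in every ASC library, below the median tile of that group.

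Of 23 genes of epiblast priming and gastrulation, 19 (82.6%) were held and 1 (4.35%) was called higher, against 69% and 18.4% of all promoters, with a median of 1.05 points. Among the held, Fgf8, Sox4 and Pou3f1 were higher in ASCs by 9.95, 9.28 and 8.50 points, with adjusted p-values of 0.0226, 0.0391 and 0.0194, but by 0.686, 1.02 and 1.66 points in the symmetric window. Wnt5a, Otx2 and Hand1 met neither description, at 15.3, 12.1 and 10.9 points (adjusted p = 0.0436, 0.0588 and 0.0658), and differed by 0.498, 9.69 and 1.499 points in that window. The called one was Mesp1, a basic helix-loop-helix factor of early mesoderm (chromosome 7, 79793688 to 79794788), at 74.4% and 71.7% in ASCs against 23.8% and 12.8% in ESCs, a gain of 54.8 points over 9 CpG sites that was 13.3 points, and not called, in the symmetric window. Lefty2, a Nodal antagonist, had the lowest value, with 12.5% and 10.3% against 15.1% and 17.4% (-4.88 points, adjusted p = 0.191), and it left the held description without any 1 of the 4 libraries, with -6.01 to -3.75 points. Differences below 0 were also seen at Lefty1, Wnt3, Eomes and Pax6. Of 10 trophoblast genes, Elf5, an ETS factor, and Krt8, a keratin, were called with 57.8 and 35.7 points, of which Krt8 lost its call in the other window with 13.7 points, and 5 (50%) were held. Of 10 primitive endoderm genes, Hnf4a, a nuclear receptor, was called with 52.3 points, 8 (80%) were held, and the smallest value was -1.33 points at Gata6. Mesp1, Elf5, Krt8 and Hnf4a all belonged to the low CpG class, in which 69.0% of all promoters were called higher. In that class 1 of 4 priming genes, 2 of 2 trophoblast genes and 1 of 2 endoderm genes were called.

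The genes of the methylation machinery were held except at 2 promoters. Of 13 tested, 11 were held and 1 was called, against 69% and 18.4% of all promoters, with a median of 0.724 points. The 7 of the high class, where 95.4% of all promoters were held, were all held, as were 3 of the 5 of the low class. Of all promoters of the low class, to which Dnmt3l belonged, 14.4% were held and 69.0% called higher. Among the held, Uhrf1 and Dnmt3b were higher in ASCs by 8.08 and 7.73 points (adjusted p = 0.0237 and 0.031). Dnmt3l (chromosome 10, 78041287 to 78042387) read 65.0% and 73.1% in ASCs against 35.5% and 26.9% in ESCs, a gain of 37.9 points (adjusted p = 0.0112). Tet1 read 16.7% and 17.0% against 0% in both ESC libraries, 16.8 points apart, which is under the required 20 (adjusted p = 0.0106). In the symmetric window, Tet1 differed by 5.21 points, Uhrf1 by 0.488 and Dnmt3b by 0.704. Hells, a chromatin remodeller needed for methylation, had the lowest value, with -0.811 points. Both ASC libraries lay above both ESC libraries at Dnmt3l and Tet1, the 2 largest differences of the list. The same was seen at Uhrf1, Dnmt3b, Dnmt1, Dppa3 and Zfp57, and the share over all promoters was not counted.

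The remaining lists are set beside the 18.4% of all promoters that were called higher and the 69% that were held. Of 33 Hox genes, which pattern the body axis, 24 were held and the 2 of the low class, Hoxb1 and Hoxc4, were called with 35.9 and 20.9 points, both lost in the other window at 11.7 and 5.18 points. Of 11 housekeeping genes 0 were called and 9 held, with the largest value of 17.0 points at B2m, which differed by -0.268 points in the other window, where all 12 tested were held. Of 9 genes of fibroblasts and other somatic cells, Myod1, Mbp, Pdgfrb and Col1a1 were called and 3 held, with the largest gain of 41.9 points at Myod1. In the other window Myod1 and Mbp lost their calls with 14.5 and 18.0 points. The smallest value was -0.679 at Twist1. Olfactory receptor promoters, poor in CpG, reached the minimum in 16 of 1126 cases, and all 16 were called, with a median of 53.8 points. Of 3 vomeronasal receptor promoters 2 were called, and of 11 clustered protocadherin promoters 1 was called and 6 held. None of the 8 promoters of genes of the 2-cell-like state reached the minimum.

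**Figure D4:**
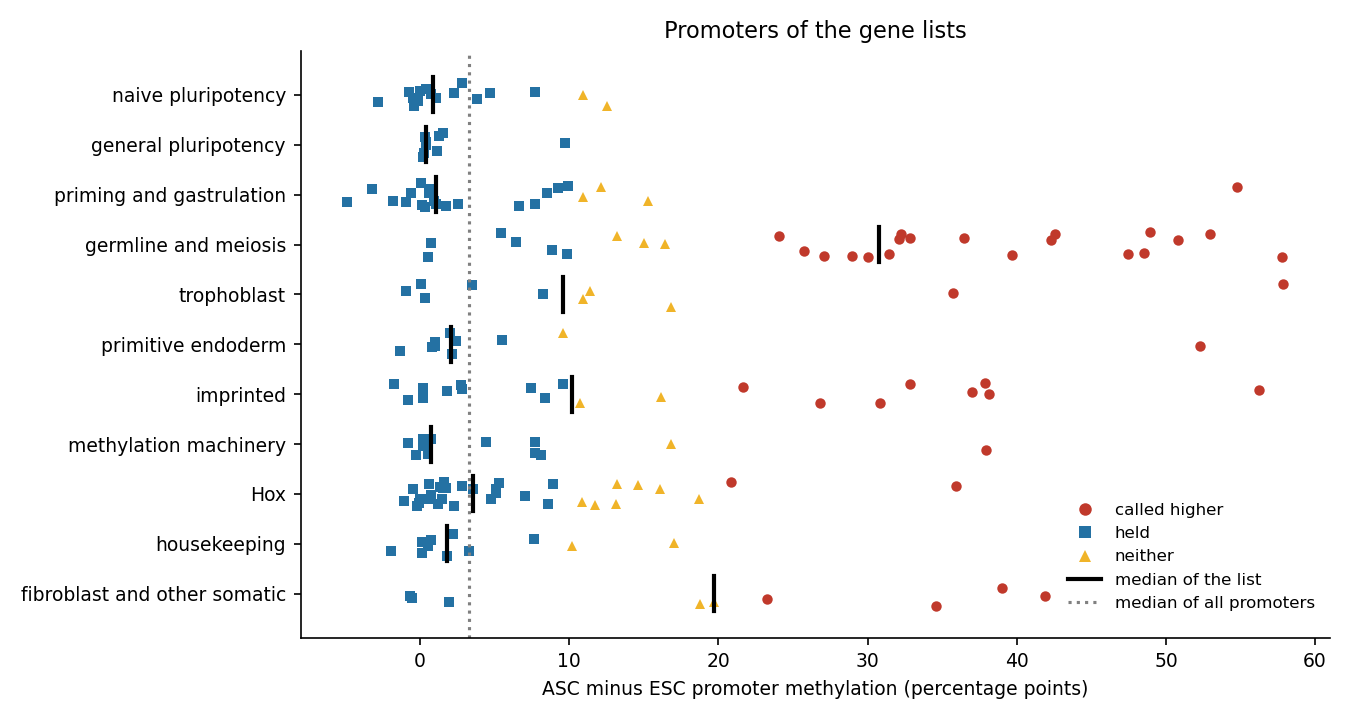
ASC minus ESC difference in promoter methylation (percentage points) of each tested gene in 11 lists, with called, held and other promoters in separate symbols, a bar at the median of each list and a dotted line at the median of all promoters, 3.27 points. The bar of the germline list lies at 30.7 points, that of the naive list at 0.885.

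The 30 promoters of the high class that were called higher included germline and imprinted genes of the lists, with Dazl the largest and Hormad1, Nnat, Sycp1 and Sgce among the others. Sfi1, of the centrosome, came second, at 60.6% and 64.6% in ASCs against 19.98% and 19.35% in ESCs. It had 2005 to 2473 observations per library over 41 CpG sites, many more than other promoters, so reads of other copies may be counted there and its value is uncertain. Sfi1 was chosen after its values were seen.

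At 24 promoters (0.165%) ASCs were lower at an adjusted p under 0.05 without a required difference, and at 108 at an unadjusted p under 0.05. Of the 24, 21 belonged to the high class and 3 to the intermediate, and 19 differed by less than 5 points. Dnajc21, a ribosome biogenesis cofactor gene (chromosome 15, 10470416 to 10471516), had levels of 0% in both ASC libraries and 16.8% and 20.4% in ESCs (-18.6 points, adjusted p = 0.00743), where 0 of 61 observations in ASC replicate 1 allow up to 4.92%. Its libraries had 1.07 to 2.51 reads per CpG site, fewer than the mean of 3.25 to 3.46, and the methylated ESC observations all lay between positions -250 and 100 relative to the start. Pds5a, Atp9a, Sos2 and Ttll11 followed, with -10.4, -9.38, -9.33 and -6.34 points and adjusted p-values of 0.0218, 0.00855, 0.0339 and 0.0107. At Pds5a the ESC libraries were apart from each other, at 7.10% and 14.7%, and both were above the ASC libraries, at 0.649% and 0.330%. With 1 library left out no promoter reached an adjusted p under 0.05, so those fits say nothing of these 5 in particular. The differences then ran from -20.4 to -16.8 points at Dnajc21 and from -9.91 to -8.85 at Atp9a, while Pds5a was at -6.61 without ESC replicate 2 and Sos2 at -6.15 without ESC replicate 1.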

How the data were processed

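Whole-genome bisulfite libraries came from post-bisulfite adaptor tagging (PBAT), with lambda phage DNA as a conversion control that was not analysed here. The authors trimmed reads with Trim Galore, aligned them to GRCm38 with Bismark 0.16.3 in PBAT mode, removed duplicates, and counted methylated reads at each CpG of both strands with MethPipe (version not given in the sources used here). Per CpG and library, the deposited tables hold the methylation level as a fraction between 0 and 1 and the coverage as a raw count of reads, with no pooling of replicates. Their product differed from a whole number by at most 0.000115 and was used as the count of methylated reads, and 0 sites lay off a CpG of GRCm38.

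Groups and replicate numbers came from the sample labels. Observations were summed over 2000 bp tiles and over promoters (1000 bp before to 100 bp after 1 transcript per gene of GENCODE M21), with at least 40 observations in each of the 4 libraries. The 95% Wilson interval of a 50% level runs from 35.2% to 64.8% with 40 observations and from 40.4% to 59.6% with 100. These intervals, and the limits given for counts of 0 (3 counts of the total), cover counting error only. They take observations as independent, although 1 read can cover several CpG sites, so they are too narrow where it does. A quasi-binomial logistic model with a group term was fitted to the 4 libraries, its dispersion moderated by limma 3.58.1 (squeezeVar, R 4.3.3), and the group term was judged by a two-sided F test, with p-values adjusted after Benjamini and Hochberg across all tiles or all promoters. The moderation was worth 76.6 prior degrees of freedom for tiles and 2.45 for promoters. The p-value of a tile thus rests mostly on the spread shared by all tiles, and little on its own spread between the 4 libraries. Group means are unweighted over the libraries, and differences carry 95% intervals from the same model. The intervals hold the dispersion at 1 or more, while the p-values use it as moderated, with a prior value of 0.864 for promoters. At Tmem208, Pth1r and Msh3, among the 24 lower promoters, the interval includes 0 although the adjusted p is under 0.05. EpiSC levels are means without a test. CpG classes followed 500 bp windows: high with an observed over expected ratio above 0.75 and GC above 55%, low with no window above 0.48, intermediate otherwise. The model was tested on simulated data. Python 3.11.15, NumPy 2.4.6, pandas 2.3.3 and the data.table package (1.17.8) were also used.

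Named promoters and tiles were the extremes of each list and of all regions (largest, smallest and fallen members of lists, 10 largest gains, 5 most negative, 10 held with the largest gap to their flanks, 10 longest held runs, and for tiles the 5 largest and 5 most negative differences and 10 distal held with the largest gap). Members, lists and rules were chosen with earlier results of these data known. Other settings, such as other coverage minimums, promoter windows and tests, are given in the closing section.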

Additional observations from a re-analysis of the deposited data

How the results depend on the processing

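The median difference of tiles stayed between 47.0 points (at least 100 observations) and 50.1 points (at least 20), and between 49.5 and 49.8 points without any 1 library. With at least 20 observations 732453 tiles were called higher and 1 lower, with at least 100 observations 119821 were called higher, the numbers tested being 776646 and 146463. Without the required difference 292 tiles were called lower. A stricter description of held tiles (under 5 points, interval within 10) left 14459. For promoters, at least 20 observations gave 4244 calls and at least 100 gave 375, of 16883 and 8182 tested. Without the required difference 5005 promoters were called higher and 24 lower, and with 40 points 1458 were called higher. Leaving out any 1 library gave 0 promoter calls, both as planned and with the dispersion trended on expected variance, an alternative added after seeing the data, while tile calls stayed between 477243 and 482794. In those fits the smallest adjusted p lay between 0.0831 and 0.0996, the prior degrees of freedom between 0.932 and 1.69, and promoters lower at an unadjusted p under 0.05 between 80 and 467. Chromosome X, thinning, limma on M values, Fisher's exact test and a dispersion from all 6 libraries left the counts of calls within 1.5 times. The window of 500 bp on each side gave 2219 calls among 15674 promoters. Of the 32 promoters followed by name 14 were called, and this window ended the call of 6 of these 14 (Stra8, Mesp1, Hoxc4, Tex19.1, Krt8 and Hoxb1). It also ended those of Dlk1, Myod1 and Mbp.

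Replicate numbers are shared by the groups, and deviations of same-numbered libraries correlated by 0.00374 over tiles and 0.0114 over promoters. Deviations of single regions hold counting error, which lowers such correlations, so these values cannot settle whether the numbers pair the libraries. With the replicate number as a block, 465563 tiles and 2544 promoters were called higher, 2514 of the latter also called without it, and 22955 tiles were held.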
